A study of Arabidopsis thaliana with 16 samples.

Results

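In the mRNA-seq table of *Arabidopsis* seedlings, 91 of 33048 genes were higher in both Polycomb mutants, *clf-81* and *lhp1-3*, and not in the mutants of the BAH–PHD–CPL2 (BPC) complex. They were taken from the 19895 genes with at least 1 FPKM (fragments scaled to transcript length and library size) in at least 2 of the 16 libraries. For each genotype the difference from the wild type Col-0 was taken on the mean of log2(FPKM + 0.5), where a difference of 1 is a doubling for all but low genes. A gene was kept when this difference was at least 1 in *clf-81* and in *lhp1-3* and under 0.5 in each of the 3 BPC mutants *aipp2-1/paipp2-1*, *aipp3-1* and *cpl2-2*. The genes were thus selected on their levels in these 5 mutants and in Col-0, which are given as a description with no test. The fold changes understate the change of low genes because of the added 0.5.

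CLF is a histone methyltransferase of Polycomb repressive complex 2, which places H3K27me3 on the chromatin of silent genes, and LHP1 is a chromodomain protein that binds this mark. In seedlings this system keeps flower and seed genes off until their stage. In the BPC complex, AIPP3 carries the BAH domain that reads H3K27me3, AIPP2 and PAIPP2 carry the PHD fingers that read unmethylated H3K4, and CPL2 is a phosphatase of the tail of RNA polymerase II.

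The 8 genotypes had 2 libraries each, made from whole 12-day-old seedlings grown on sucrose medium under long days, and all mutants were in the Col-0 background. The alleles *aipp2-1*, *aipp3-1* and *cpl2-2* are T-DNA insertions, *paipp2-1* was made by CRISPR/Cas9, *aipp2-1/paipp2-1* carries both of its alleles, and *clf-81* and *lhp1-3* are the alleles of the Polycomb genes. Nothing states that the 2 libraries of a genotype came from separate cultures, so the p-values measure only the spread between these libraries. In whole seedlings, a change in the number of cells of a type and a change of RNA per cell cannot be told apart.

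The depth, read from the steps between low FPKM values, ranged from 19180000 to 27120000 fragments per library. Transcript of the mutated gene was 22.8 and 23.6 FPKM in Col-0 against 5.99 and 4.84 in *aipp3-1* for *AIPP3*, and 15.3 and 14.1 against 6.01 and 6.12 in *cpl2-2* for *CPL2*. It was 5.24 and 5.44 against 3.67 and 4.21 in *aipp2-1* for *AIPP2*, and 10.8 and 11.1 against 7.82 and 6.63 in *paipp2-1* for *PAIPP2*. *CLF* had 9.94 and 9.98 FPKM in Col-0 and 7.05 and 8.11 in *clf-81*, and *LHP1* had 8.94 and 10.2 in Col-0 and 6.29 and 6.45 in *lhp1-3*. Each of these library pairs was thus lower in the gene of its label. In *aipp2-1/paipp2-1*, *AIPP2* had 1.38 and 1.36 FPKM, well under its *aipp2-1* values, and *PAIPP2* had 9.28 and 6.62. With limma, neither *AIPP2* in *aipp2-1* nor *PAIPP2* in *paipp2-1* was called lower. The cause of the gap in *AIPP2* between *aipp2-1* and the double mutant was not tested. The 4 leaf markers summed to between 198 and 417 FPKM, almost all of it *PORB*, and the 8 root markers to between 76.5 and 135 FPKM in all libraries. The leaf marker *CAB2*, which has near-identical copies, had 9.83 and 5.58 FPKM in Col-0 and 3.30 and 3.19 in *lhp1-3* (difference -1.08, limma adjusted p = 0.0035), and its part in the *lhp1-3* values was not tested. The 6 anther markers summed to at most 0.33 FPKM in any library. *RBCS1A* and *CAB1*, which green seedlings use, were listed at 0.20 to 0.43 and 0 to 0.55 FPKM, so a low value of a gene with near-identical copies is uncertain and a 0 may be a failed estimate.

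In *clf-81* the differences of the 91 genes ranged from 1.02 to 5.94 with a median of 1.82, and in *lhp1-3* from 1.00 to 5.03 with a median of 1.41, against medians of -0.06 and -0.01 over all genes tested. With limma, at an adjusted p under 0.05 and at least a doubling, 90 of the 91 counted as called higher in *clf-81*, where 5.98% of all genes tested were called higher, and 90 in *lhp1-3*, where 2.8% were. None was called lower, where 2.55% and 1.82% of all genes were. The difference alone was at least 1 for 6.27% of all genes in *clf-81* and for 3.18% in *lhp1-3*. The gene not called was the small RNA gene AT1G09867 in *clf-81* (1.34 and 4.34 FPKM in the Col-0 libraries, 4.73 and 7.35 in the mutant) and *CYP74B2* in *lhp1-3* (1.85 and 2.73 FPKM, and 4.79 and 5.77 in the mutant). These contrasts chose the genes, so the counts say nothing further about them.

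**Figure D1:**
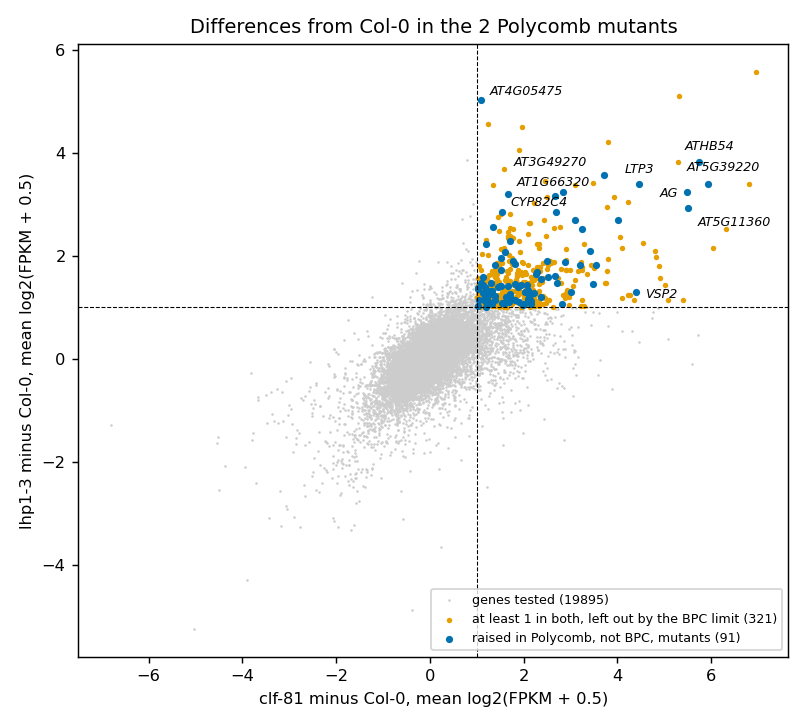
Difference from Col-0 in *clf-81* (horizontal) and *lhp1-3* (vertical), as mean log2(FPKM + 0.5), for each gene tested (grey), the 321 genes with at least 1 in both that the BPC limit left out (orange) and the 91 genes described here (blue). Dashed lines mark a difference of 1; *AT5G39220* lies farthest right and *AT4G05475* highest among the blue points.

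The Polycomb limit left 412 of the 19895 genes tested, and the BPC limit then left 91. Of the 412 genes at or above 1 in both Polycomb mutants, which were 2.07% of those tested, 321 reached 0.5 in at least 1 BPC mutant. Of these, 285 did so in *aipp2-1/paipp2-1*, 189 in *cpl2-2*, 164 in *aipp3-1* and 113 in all 3. The genes just inside the BPC limit were *TULP5* (largest BPC difference 0.49), *AT2G27420* (0.49) and *DJ1F* (0.48), and those just outside were *MSRB4* (0.502), *NPF5.1* (0.504) and *AT5G61820* (0.505). At the Polycomb limit, *ISA3* (smaller difference 1.00), *SWEET14* (1.02) and *AT5G12950* (1.02) were just inside, and *CHAT* (0.999), *UGT91A1* (0.993) and *MRP6* (0.991) just outside. When Col-0 replicate 2 was left out, 86 genes met the rule and 63 of the 91 were among them, and when Col-0 replicate 1 was left out, 96 met it and 70 of the 91 were among them.

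The genes covered a wide range of levels in Col-0. Of the 91, 33 were at or under 1 FPKM in Col-0, 26 were above 1 and up to 10 FPKM, and 32 were above 10 FPKM. These are 36.3%, 28.6% and 35.2%, against 8.50%, 43.4% and 48.1% of the genes tested, and 28.7%, 48.0% and 23.4% of the 321 genes that the BPC limit left out. A gene low in Col-0 could pass the filter through the Polycomb libraries, in which the rule required it to be high. The choice of genes thus shaped these shares, which are a description. The 33 lowest had a median difference of 2.26 in *clf-81* and 1.83 in *lhp1-3*, and 8 of them were listed at 0 in both Col-0 libraries. The 32 genes above 10 FPKM had medians of 1.59 and 1.28. The heatmap of all 91 genes shows strong colours in the Polycomb columns and mostly pale ones in the other 5. A clear exception is *CYP82C4* in *aipp3-1*, at -3.75.

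**Figure D2:**
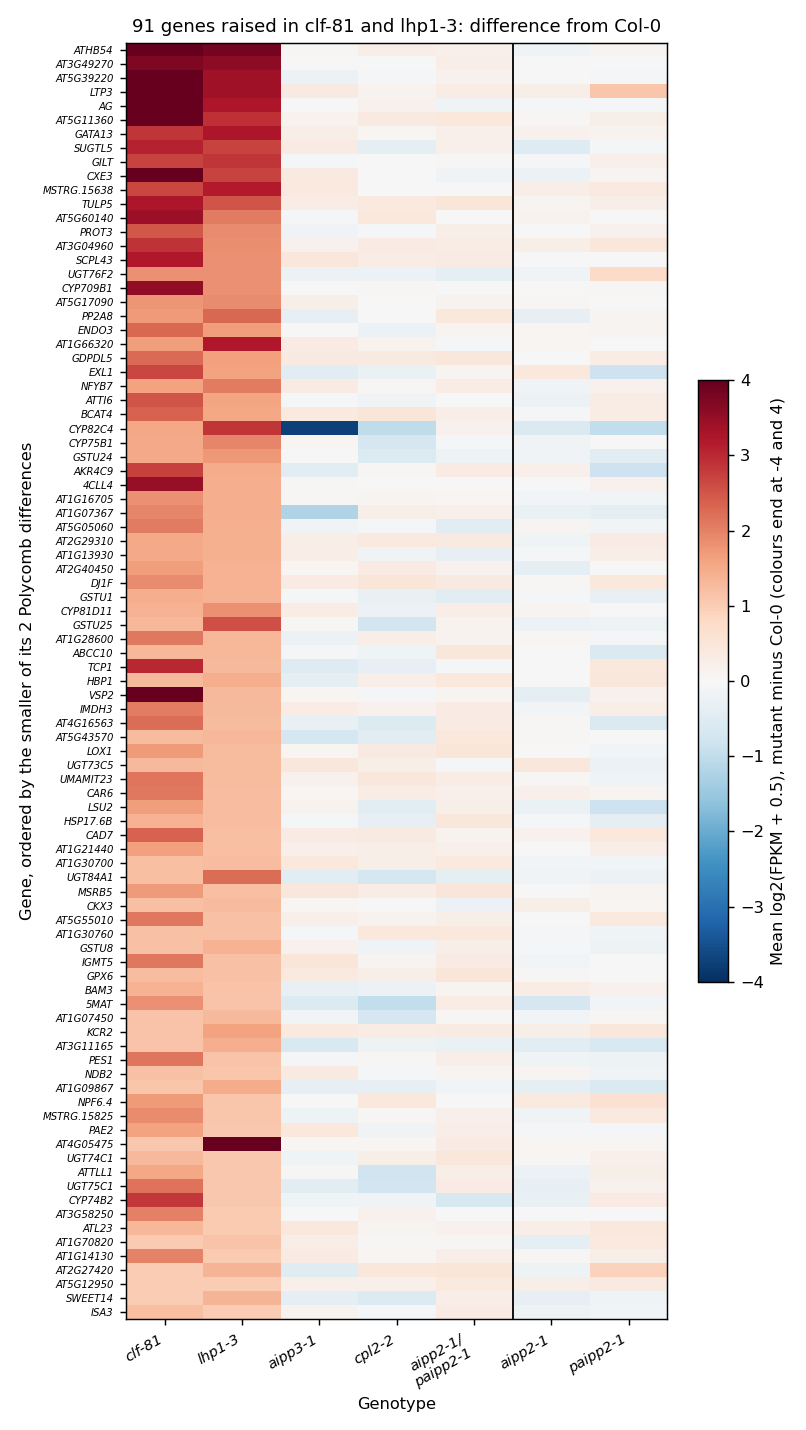
Difference from Col-0 (mean log2(FPKM + 0.5), mutant minus Col-0) of each of the 91 genes (rows, ordered by the smaller of the *clf-81* and *lhp1-3* differences) in the 7 mutants (columns). Red is higher and blue lower than Col-0, and the colours end at -4 and 4. The 2 columns right of the line are the mutants whose differences did not enter the rule.

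Among the transcription factors, which were 7 of the 91, the homeodomain-leucine zipper gene *ATHB54* (AT1G27045) had the largest smaller difference of all members. Its level was 0.80 and 0.85 FPKM in the Col-0 libraries, 67.2 and 74.1 in those of *clf-81* and 18.3 and 18.0 in those of *lhp1-3*. The BPC mutants had 0.91 and 0.85 (*aipp3-1*), 1.54 and 0.76 (*cpl2-2*) and 1.48 and 0.67 FPKM (*aipp2-1/paipp2-1*). The Polycomb libraries stood far above all others, with differences of 5.75 and 3.82, while the BPC libraries overlapped Col-0.

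*AG* (AT4G18960) is the MADS-box gene that specifies stamens and carpels and ends the growth of the floral meristem, and a textbook Polycomb target in leaves. It had 0.14 and 0.08 FPKM in Col-0, which is about 5.8 and 3.8 fragments, 27.0 and 26.7 FPKM in *clf-81* and, in *lhp1-3*, 5.47 and 5.05 FPKM. The 3 BPC mutants had 0.06 and 0.19 (*aipp3-1*), 0.13 and 0.24 (*cpl2-2*) and 0.10 and 0 FPKM (*aipp2-1/paipp2-1*). *AG* was thus near the detection limit in every library outside the Polycomb mutants, where its differences were 5.49 and 3.24. The 6 anther markers summed to 0.26 and 0.04 FPKM in *clf-81*, 0.11 and 0.31 in *lhp1-3* and 0.25 and 0.13 in Col-0, and 3 of the 6 were at 0 in both *clf-81* libraries, 4 in *lhp1-3* and 4 in Col-0.

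*AG* was the only floral MADS gene among the 91. Of the 14 listed floral MADS genes 12 could be tested, and limma called 10 higher in *clf-81* (5.98% of all genes tested) and 11 in *lhp1-3* (2.8%), with medians of 2.11 and 2.31. It called 1 higher in *aipp3-1* (*AP1*; 3.14% of all genes were called higher), 2 in *cpl2-2* (*SEP3* and *FUL*; 2.71%) and 4 in *aipp2-1/paipp2-1* (*SEP3*, *SEP4*, *AP3* and *FUL*; 6.44%). The floral organ genes *SHP1*, *SHP2* and *PI* were left out by their *cpl2-2* value alone. *SHP1*, a carpel and fruit gene, differed by 1.62 and 1.28 in the Polycomb mutants and by 0.45 in *aipp3-1*, 0.62 in *cpl2-2* and 0.17 in the double mutant. *SHP2*, its close homologue, differed by 3.30 and 2.24 in the Polycomb mutants and by 0.14 in *aipp3-1*, 0.59 in *cpl2-2* and 0.23 in the *aipp2-1/paipp2-1* double mutant. *PI*, which specifies petals and stamens, differed by 2.48 and 2.39 and by -0.10, 0.59 and 0.27. In contrast, *SEP3*, the partner of the other floral MADS proteins, differed by 5.32 and 5.11 in the Polycomb mutants and by 0.93, 1.68 and 1.25 in the BPC mutants. Among 14 tested flowering-time regulators, 4 were called higher and 1 lower in each Polycomb mutant. Over all genes tested, 5.98% were called higher and 2.55% lower in *clf-81*, and 2.8% and 1.82% in *lhp1-3*. None of the 14 was a member, where 91 of all 19895 genes tested were.

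*GATA13* (AT2G28340), a GATA-type zinc finger gene, was listed at 0 in both Col-0 libraries and had 2.91 and 3.32 FPKM in *clf-81*, with 4.01 and 4.46 in *lhp1-3*. Its highest value in the other libraries was 0.18 FPKM. *TULP5* (AT1G43640), of the Tubby-like family, was also listed at 0 in Col-0 and had 4.52 and 4.0 FPKM in *clf-81*, 2.81 and 1.97 in *lhp1-3*, and at most 0.24 elsewhere. Both were detected at over 1 FPKM in the Polycomb libraries alone. The B3-domain gene *AT5G60140*, the TCP-domain gene *TCP1* and *NFYB7*, a histone-fold subunit of the NF-Y factor, complete the group. All 7 were under 1 FPKM in both Col-0 libraries, and 5 of the 7 were higher in *clf-81* than in *lhp1-3*. No member was annotated with the words NAC, WRKY, MYB, bHLH or ERF. Of the genes tested, 0.347%, 0.317%, 0.658%, 0.558% and 0.342% carried these words, so counts of 0 were near the background.

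**Figure D3:**
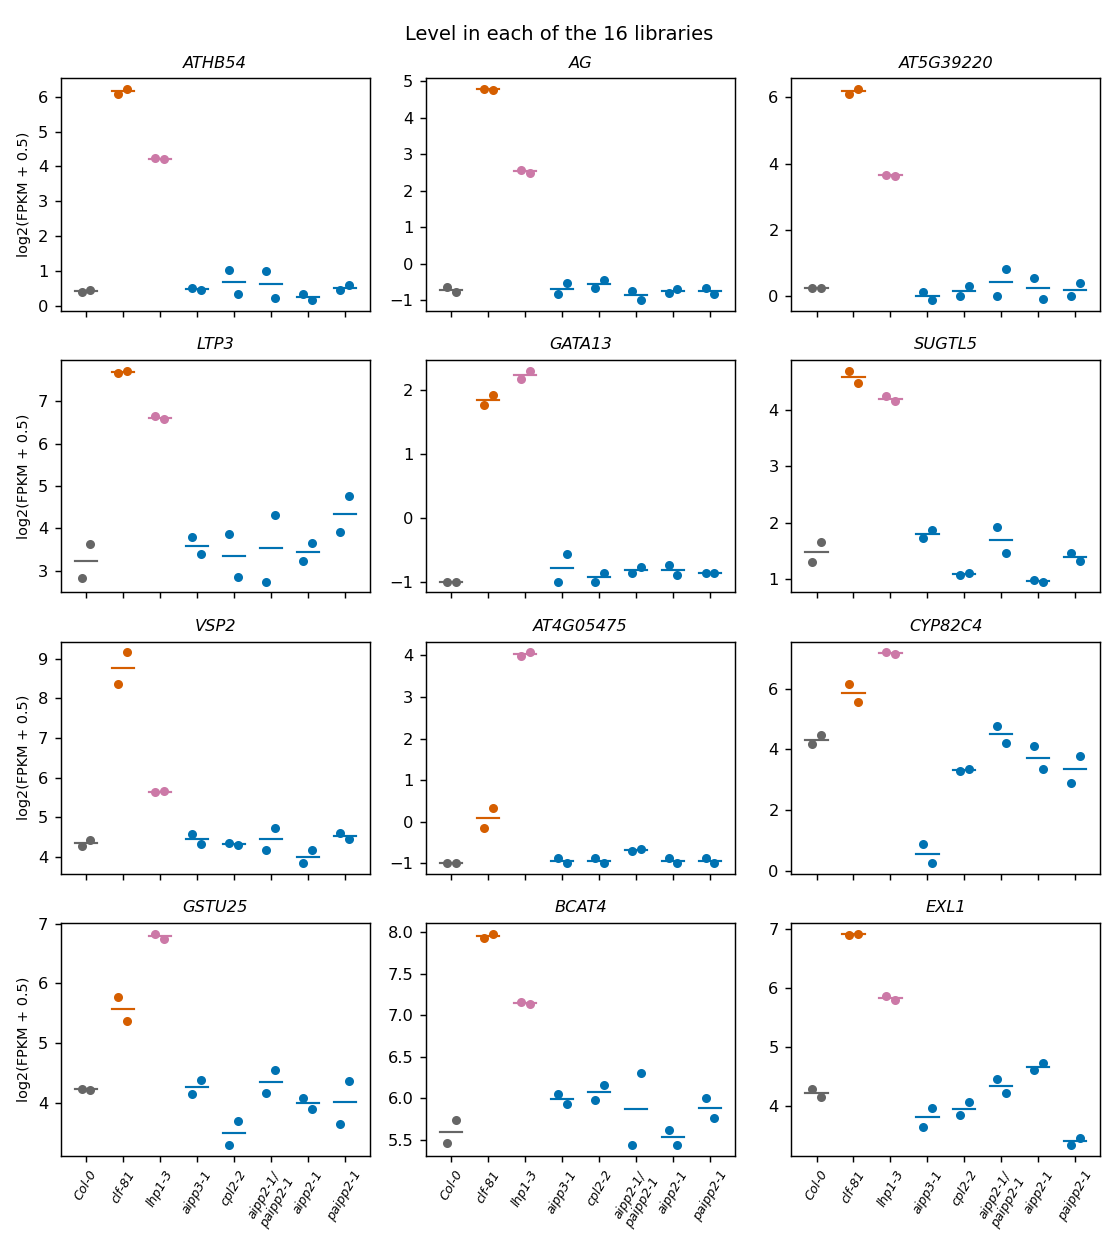
Level of 12 of the genes as log2(FPKM + 0.5) in each of the 16 libraries (points) with the mean of each genotype (bars), Col-0 in grey, *clf-81* in orange, *lhp1-3* in pink and the other mutants in blue. Each panel has its own vertical axis; in all 12 the *clf-81* and *lhp1-3* points lie above both Col-0 points, and *CYP82C4* falls lowest in *aipp3-1*.

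Enzymes and cell surface proteins made up most of the other genes with large differences. *AT5G39220*, an alpha/beta-hydrolase, had 0.68 and 0.68 FPKM in Col-0, against 68.1 and 75.6 in *clf-81*, while *lhp1-3* had 12.1 and 11.9 and the 10 libraries of the other mutants lay between 0.42 and 1.27. *LTP3* (AT5G59320), a small secreted lipid transfer protein with close paralogs between which reads may have been split, had 6.57 and 11.9 FPKM in the Col-0 libraries, 202 and 212 in those of *clf-81* and 100.3 and 95.1 in those of *lhp1-3*. Its values in the BPC mutants were 13.4 and 9.95, 14.1 and 6.68, and 6.17 and 19.5 FPKM, which overlap Col-0. *LTP3* was therefore active in every genotype, with differences of 4.47 and 3.39 in the Polycomb mutants.

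*AT3G49270*, annotated as extensin-like, was listed at 0 in both Col-0 libraries, where 3 fragments would be worth 0.169 and 0.146 FPKM, and at 0 in both libraries of 4 other genotypes. It had 5.77 and 6.43 FPKM in *clf-81*, 5.59 and 5.27 in *lhp1-3*, and 0.06 and 0.15 in *aipp2-1/paipp2-1*. It was close to equal in the Polycomb mutants, unlike *AT5G11360*, annotated with a kinase name, which had 0 and 0.25 FPKM in Col-0, against 27.1 and 28.1 in *clf-81*, while *lhp1-3* had 3.70 and 4.69. The sugar transporter gene *SUGTL5* had 1.97 and 2.68 FPKM in the Col-0 libraries, 25.3 and 21.6 in those of *clf-81* and 18.3 and 17.3 in those of *lhp1-3*. The thiol reductase gene *GILT* (differences 2.69 and 2.85), the carboxylesterase gene *CXE3* (4.02 and 2.69) and the assembled transcript MSTRG.15638 (2.67 and 3.16), which the file does not annotate, complete the 12 genes with the largest smaller difference.

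The promoters of 5 members are shown because these genes were higher in both Polycomb mutants and each carries at least 1 of the 4 motifs searched. Each is the 250 bases before the annotated start in RefSeq TAIR10.1, 5′ to 3′ on the strand of the gene, with motif matches in capitals. The telobox is AAACCCTA. The GAGA motif searched was GAGAGA. The G-box core of this search was CACGTG and the W-box core was TTGACC. All 4 were searched on both strands, and none of them overlaps another in the printed promoters. *LTP3* is at chr5:23928704-23928953 on the plus strand and *AG* at chr4:10382606-10382855 on the plus strand. *AT5G39220* is at chr5:15705456-15705705 on the plus strand, *AT3G49270* at chr3:18268272-18268521 on the minus strand, and *GSTU1*, a glutathione transferase gene described further on, at chr2:12632539-12632788 on the minus strand.
LTP3: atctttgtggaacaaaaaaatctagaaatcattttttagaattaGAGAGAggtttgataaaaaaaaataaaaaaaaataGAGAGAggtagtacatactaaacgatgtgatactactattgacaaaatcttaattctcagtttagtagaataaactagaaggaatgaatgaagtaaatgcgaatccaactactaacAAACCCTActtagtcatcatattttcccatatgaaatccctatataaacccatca
AG: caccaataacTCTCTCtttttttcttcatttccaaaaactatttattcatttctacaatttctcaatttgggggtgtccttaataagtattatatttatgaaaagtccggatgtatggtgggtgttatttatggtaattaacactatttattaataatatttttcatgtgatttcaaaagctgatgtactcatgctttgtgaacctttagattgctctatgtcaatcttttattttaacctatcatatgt
AT5G39220: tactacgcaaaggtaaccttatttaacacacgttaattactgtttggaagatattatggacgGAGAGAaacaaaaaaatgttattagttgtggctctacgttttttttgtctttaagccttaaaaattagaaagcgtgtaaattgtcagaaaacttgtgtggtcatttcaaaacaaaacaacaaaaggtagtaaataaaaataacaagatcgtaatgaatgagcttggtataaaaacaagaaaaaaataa
AT3G49270: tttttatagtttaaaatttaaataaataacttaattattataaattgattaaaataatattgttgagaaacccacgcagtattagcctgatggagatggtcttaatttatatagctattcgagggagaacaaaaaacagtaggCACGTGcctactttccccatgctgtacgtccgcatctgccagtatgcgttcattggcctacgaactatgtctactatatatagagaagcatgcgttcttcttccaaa
GSTU1: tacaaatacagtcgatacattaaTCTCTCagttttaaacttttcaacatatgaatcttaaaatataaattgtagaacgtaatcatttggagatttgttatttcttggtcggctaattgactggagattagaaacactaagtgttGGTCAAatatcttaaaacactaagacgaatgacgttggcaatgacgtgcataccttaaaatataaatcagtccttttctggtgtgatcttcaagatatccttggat

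Over the 89 genes with an annotated start, the telobox was in 1 promoter (1.12%), that of *LTP3*, against 3.62% of the 19573 promoters of genes tested. GAGAGA was in 15 (16.9%, against 19.1%), the G-box in 8 (8.99%, against 7.42%) and the W-box in 12 (13.5%, against 12.1%). The GAGA, G-box and W-box shares were close to those of all promoters of the same length and the telobox share was lower, on 1 promoter, and a match is a string of letters, not a measured binding site.

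The difference between the Polycomb mutants varied widely from gene to gene. Of the 91, 62 had the higher mean in *clf-81* and 29 in *lhp1-3*, and the median of *clf-81* minus *lhp1-3* was 0.42, against -0.04 over all genes tested. Over the 412 genes at or above 1 in both Polycomb mutants, which include the 91, that median was 0.315. Both *clf-81* libraries were above both *lhp1-3* libraries for 57 genes (31.6% of all genes tested) and below for 21 (40.0%). With at least a doubling besides there were 19 (3.64% of all genes tested), and the reverse held for 5 (1.4%). Both contrasts chose the genes, so no test is given.

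*VSP2* (AT5G24770), a vegetative storage protein induced by jasmonate, had the largest excess in *clf-81*. It had 18.9 and 21.0 FPKM in Col-0, against 326 and 573 in *clf-81*, while *lhp1-3* had 49.1 and 50.0, so its differences were 4.40 and 1.29. In the BPC mutants it stayed between 17.5 and 26.0 FPKM. *AT5G11360* and *AT5G39220*, given above, followed with excesses of 2.59 and 2.53 in *clf-81*. *VSP2*, *LOX1*, a lipoxygenase, and *CYP74B2*, a hydroperoxide lyase, are the 3 oxylipin and jasmonate genes among the members, and all 3 were higher in *clf-81* than in *lhp1-3*, with medians of 2.82 and 1.26.

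The excess in *lhp1-3* was largest for *AT4G05475*, which encodes a leucine-rich repeat protein of the RNI-like family. It was listed at 0 in both Col-0 libraries and had 0.40 and 0.75 FPKM in *clf-81* but 15.2 and 16.4 in *lhp1-3*, and at most 0.14 elsewhere. Another RNI-like gene with an F-box, *AT1G66320*, had 0.03 and 0 FPKM in the Col-0 libraries, 1.35 and 0.94 in those of *clf-81* and 4.45 and 4.09 in those of *lhp1-3*. *CYP82C4* (AT4G31940), a cytochrome P450 that makes the iron-mobilizing coumarin sideretin, had 17.6 and 21.5 FPKM in Col-0, against 70.0 and 47.0 in *clf-81*, while *lhp1-3* had 147 and 142. All 3 had both *lhp1-3* libraries above both *clf-81* libraries.

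Detoxification and redox enzymes formed the largest functional group, with 10 of the 91, a grouping made after the values were seen. Glutathione transferases attach glutathione to reactive or foreign compounds, and 4 of the tau class (GSTU) were members. *GSTU25* (AT1G17180) had 18.3 and 18.1 FPKM in the Col-0 libraries, 54.0 and 40.7 in those of *clf-81* and 114 and 107 in those of *lhp1-3*. Its neighbour *GSTU24* (AT1G17170) had 20.4 and 23.2, 65.4 and 61.6, and 74.8 and 72.1 FPKM in the same order. In *cpl2-2*, *GSTU25* had 9.30 and 12.5 FPKM and *GSTU24* 11.3 and 18.8, below both Col-0 values for each gene. The same held for 23.3% of all genes tested. These genes lie next to each other at chr1:5869543-5870883 and chr1:5872024-5873124 (TAIR10.1), with 1141 bases between them, and as close copies they may have exchanged reads.

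*GSTU1* (AT2G29490) and the small heat shock gene *HSP17.6B* (AT2G29500), at chr2:12631341-12632538 and chr2:12633065-12634120 with 527 bases between them, were the other neighbouring pair. *GSTU1* had 9.09 and 9.78 FPKM in Col-0, against 24.3 and 29.4 in *clf-81*, while *lhp1-3* had 26.3 and 24.7. *HSP17.6B* had 3.76 and 5.6, 12.5 and 13.3, and 12.6 and 10.3 FPKM. Both genes had nearly the same size of difference in the Polycomb mutants, between 1.22 and 1.45. The group further held *GSTU8*, *CYP81D11*, the glucosyltransferase gene *UGT73C5*, the aldo-keto reductase gene *AKR4C9*, the transporter gene *ABCC10*, *GPX6* (a thiol peroxidase) and *MSRB5*, which repairs oxidized methionine. Over the 10 genes the median difference was 1.36 in *clf-81*, 1.39 in *lhp1-3*, 0.11 in *aipp3-1*, -0.15 in *cpl2-2* and 0.25 with both *aipp2-1* and *paipp2-1*.

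The whole GSTU family held more called genes in the Polycomb mutants. Of 24 genes tested, limma called 12 higher in *clf-81* and 11 in *lhp1-3*, none in *aipp3-1* or *cpl2-2* and 2 in *aipp2-1/paipp2-1*, and none lower in any of the 5. Outside the 4 members, 8 of 20 were called higher in *clf-81* and 7 in *lhp1-3*. Over all genes tested, 5.98%, 2.8%, 3.14%, 2.71% and 6.44% were called higher in the 5 mutants in the order *clf-81*, *lhp1-3*, *aipp3-1*, *cpl2-2*, double mutant, so the counts of 0, 0 and 2 of 24 in the BPC mutants were near the background. The family medians were 1.07, 0.82, 0.29, 0.08 and 0.14 in that order. The families were chosen after the members were known, so these counts are a description.

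**Figure D4:**
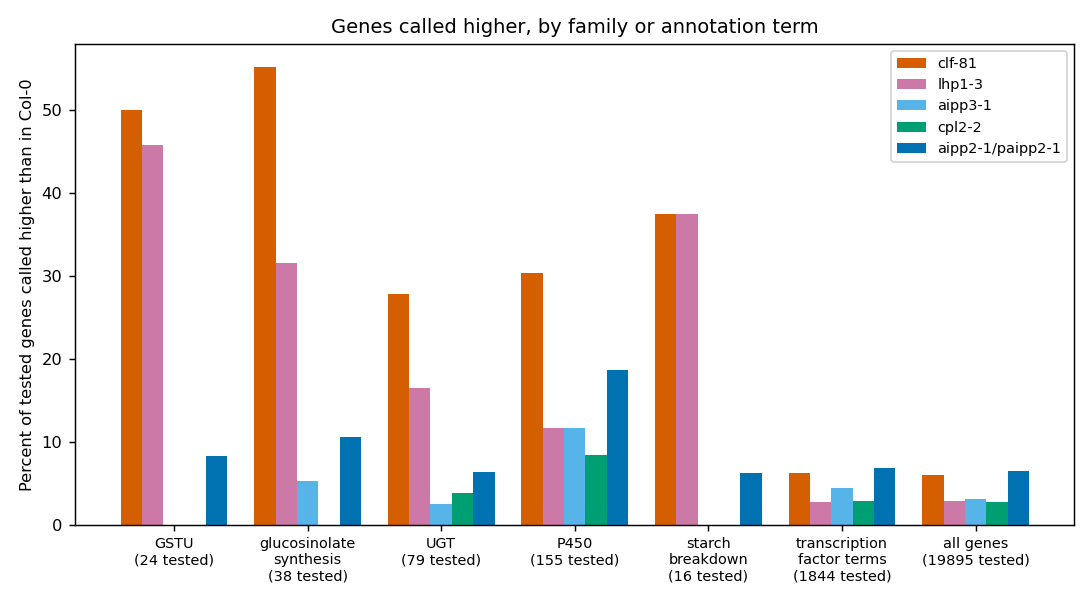
Percent of tested genes that limma called higher than in Col-0 (adjusted p under 0.05 and at least a doubling; vertical axis) in 5 mutants (colours), for 3 gene families, 3 annotation terms and all genes tested. Bars start at 0, and the GSTU bars reach 12 and 11 of 24 genes in *clf-81* and *lhp1-3* and 0 in *aipp3-1* and *cpl2-2*.

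Glucosinolates are the sulfur-rich defence compounds of the cabbage family, and 4 members act in their synthesis. *BCAT4* (AT3G19710), the aminotransferase that starts the lengthening of methionine, had 43.5 and 52.6 FPKM in the Col-0 libraries, 244 and 253 in those of *clf-81* and 143 and 140 in those of *lhp1-3*. *IMDH3* (AT5G14200), the isopropylmalate dehydrogenase of the same pathway, had 65.7 and 76.6, 290.0 and 293, and 173 and 175 FPKM. *IGMT5* and *UGT74C1*, a methyltransferase and a glucosyltransferase, differed by 2.10 and 1.30 in *clf-81* and by 1.16 and 1.08 in *lhp1-3*. All 4 were higher in *clf-81* than in *lhp1-3*, and all 4 lay between 0.27 and 0.46 in *aipp2-1/paipp2-1*, under the limit of 0.5. Of the 38 tested genes annotated with glucosinolate biosynthesis, limma called 21 higher in *clf-81*, 12 in *lhp1-3*, 2 in *aipp3-1*, none in *cpl2-2* and 4 in *aipp2-1/paipp2-1*. Over all genes tested, the shares in that order were 5.98%, 2.8%, 3.14%, 2.71% and 6.44%, so the BPC counts were near the background. Outside the 3 members with this term, 18 of 35 were called higher in *clf-81* and 9 in *lhp1-3*.

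Phenylpropanoid and anthocyanin enzymes, 6 of the 91, were the group with the lowest median in *cpl2-2*. Their median difference was 1.99 in *clf-81*, 1.33 in *lhp1-3* and -0.68 in *cpl2-2*, where 4 of the 6 were at or under -0.5. *5MAT* (AT3G29590), which adds malonate to anthocyanins, had 1.10 and 1.54 FPKM in Col-0, against 5.13 and 6.74 in *clf-81*, 3.18 and 3.86 in *lhp1-3* and 0.57 and 0.28 in *cpl2-2*. *UGT84A1* (AT4G15480), a glucosyltransferase of hydroxycinnamic acids, had 1.04 and 1.51 FPKM in Col-0, against 3.93 and 3.21 in *clf-81*, 8.06 and 7.48 in *lhp1-3* and 0.63 and 0.55 in *cpl2-2*. Both were lower in the *cpl2-2* libraries than in any Col-0 library, as were 23.3% of all genes tested. Both were also below Col-0 in *aipp3-1*, with 0.70 and 0.77 FPKM for *5MAT* and 0.81 and 0.81 for *UGT84A1*. In *aipp2-1/paipp2-1*, *UGT84A1* was below Col-0 (0.73 and 0.96 FPKM) and *5MAT* above it (1.65 and 1.75). In *aipp2-1*, *5MAT* was below Col-0 (0.75 and 0.53 FPKM) and *UGT84A1* was not (1.06 and 1.12). *CYP75B1*, the flavonoid 3′-hydroxylase, and *UGT75C1*, an anthocyanin glucosyltransferase, also lay low there, at -0.66 and -0.77, while *CAD7* and *4CLL4* did not, at 0.37 and 0.00. The rule kept only genes under 0.5 in *cpl2-2*, and the group was formed after the values were seen. Of the 48 tested genes annotated with anthocyanin or flavonoid biosynthesis, limma called 4 higher and 2 lower in *cpl2-2*, with a median of -0.12. Over all genes tested, 2.71% were called higher and 0.332% lower in this mutant.

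The 2 starch-degrading enzymes among the members were active in Col-0. *BAM3* (AT4G17090), the chloroplast beta-amylase, had 68.1 and 76.7 FPKM in Col-0, against 180.2 and 200.1 in *clf-81*, while *lhp1-3* had 164 and 158. *ISA3*, a starch debranching enzyme, had 14.2 and 19.2, 38.3 and 38.3, and 33.0 and 34.0 FPKM. Of the 16 tested genes annotated with starch catabolism, 6 were called higher in *clf-81* and 6 in *lhp1-3*, none in *aipp3-1* or *cpl2-2*, and 1 in *aipp2-1/paipp2-1*. With 16 genes, the counts of 0, 0 and 1 were near the shares of 3.14%, 2.71% and 6.44% of all genes called higher in these mutants, while 5.98% and 2.8% were called in the Polycomb mutants. *BAM3* was with *AT1G13930* and *GPX6* the highest in Col-0 of all members. *AT1G13930*, annotated as oleosin-B3-like, had 131 and 138 FPKM in the Col-0 libraries, 381 and 388 in those of *clf-81* and 370.2 and 345 in those of *lhp1-3*, and *GPX6* had 104 and 118, 259 and 259, and 247 and 248 FPKM.

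In the BPC mutants the 91 genes lay near Col-0 on the whole, which the rule bounds from above only. The median was 0.06 in *aipp3-1* (0.07 over all genes tested), 0.05 in *cpl2-2* (0.01) and 0.21 in *aipp2-1/paipp2-1* (0.05). Both libraries were above both Col-0 libraries for 28 genes in *aipp3-1* (40.1% of all genes tested), for 18 in *cpl2-2* (29.4%) and for 26 in *aipp2-1/paipp2-1* (28.3%). In the same order, they were below both for 18 genes (21.1%), 18 genes (23.3%) and 5 genes (22.2%). Seed transcripts were higher in all 3 BPC mutants, and most so in *aipp2-1/paipp2-1*. The 14 seed maturation markers summed to 108 and 233 FPKM there against 2.37 and 1.59 in Col-0, and 7 of the 8 tested were called higher. They summed to 6.91 and 13.8 FPKM in *aipp3-1* and 13.0 and 37.9 in *cpl2-2*, and only *CRA1* was called higher in each. In *aipp2-1/paipp2-1* 2 of the 8 root markers, *EXPA7* and *EXPA18*, were called lower (differences -1.03 and -1.55). The part of the seed and root markers in the members' values was not tested. A difference of -0.5 or less was reached by 6 genes in *aipp3-1*, by 11 in *cpl2-2* and by 1 in *aipp2-1/paipp2-1*. Among all tested genes under the same limit of 0.5, those shares were 4.47%, 4.23% and 12.8%, and 2 of the 91 genes reached it in more than 1 BPC mutant.

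*CYP82C4* had the lowest mean over the BPC mutants, with 1.36 and 0.69 FPKM in *aipp3-1*, against 9.28 and 9.67 in *cpl2-2*, while *aipp2-1/paipp2-1* had 26.9 and 18.1. It was thus far below Col-0 in *aipp3-1* (difference -3.75), lower in *cpl2-2* (-1.0) and overlapping Col-0 in *aipp2-1/paipp2-1* (0.18). The long non-coding RNA gene *AT1G07367* had 0.13 and 0 FPKM in *aipp3-1* against 0.49 and 1.16 in Col-0. These were the only 2 of the 91 that limma called lower in *aipp3-1* (0.251% of all genes), and none was called lower in *cpl2-2* (0.332%) or in *aipp2-1/paipp2-1* (1.28%). These contrasts also entered the choice of genes, so the counts are a description and not a test. At an unadjusted p under 0.05 and at least 2-fold, 1 was lower in *cpl2-2* (*CYP82C4*) and 0 in *aipp2-1/paipp2-1*.

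The differences of the single mutants *aipp2-1* and *paipp2-1* from Col-0 did not enter the rule, but they share its Col-0 libraries. In *aipp2-1* the 91 differences ranged from -0.67 to 0.44 with a median of -0.01, and in *paipp2-1* from -0.98 to 1.11 with a median of 0.06. With limma, no member was called in *aipp2-1*, where 0.00503% of genes were called higher and 0.0% lower, or in *paipp2-1*, where 0.131% and 0.0352% were. Both libraries were above both Col-0 libraries for 11 genes in *aipp2-1* (26.5% of all genes) and 28 in *paipp2-1* (25.1%), and below both for 15 (12.1%) and 10 (21.9%). At an unadjusted p under 0.05 and at least 2-fold there were 0 in *aipp2-1* and 1 in *paipp2-1*, *LTP3*, with 14.5 and 26.6 FPKM against 6.57 and 11.9 in Col-0 (limma adjusted p = 0.43).

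The difference of *paipp2-1* from *aipp2-1* did not enter the rule, and 1 of the 91 passed the test. These libraries did count in the filter on low FPKM, and the fit took its spread from all 16 libraries. *EXL1* (AT1G35140), an EXORDIUM-like protein of the phosphate-responsive family secreted to the cell wall space, had 23.8 and 25.9 FPKM in *aipp2-1* and 9.65 and 10.55 in *paipp2-1*. Col-0 lay between them with 19.1 and 17.35 FPKM, and *clf-81* had 118 and 120.0 and *lhp1-3* 57.8 and 55. The log2 difference of *paipp2-1* from *aipp2-1* was -1.26 (standard error 0.126, limma adjusted p = 0.0031), in a comparison where 0.0302% of genes were called lower and 0.0503% higher. Without *aipp2-1* replicate 2 the adjusted p of *EXL1* was 0.053, and over the 26 alternatives it ranged from 0.0007 to 0.053.

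Over the 91 genes the median of *paipp2-1* minus *aipp2-1* was 0.09, against -0.03 over all genes tested, and 75 lay within 0.5 of 0. Both *paipp2-1* libraries were above both *aipp2-1* libraries for 33 genes (21.8% of all genes tested) and below for 12 (30.8%). At an unadjusted p under 0.05 and at least 2-fold, *AKR4C9* was lower in *paipp2-1* (-1.05, limma adjusted p = 0.15) and *AT2G27420* higher (1.15, limma adjusted p = 0.20), besides *EXL1*. *AKR4C9* passed the adjusted threshold when either *aipp2-1/paipp2-1* library was left out (limma adjusted p = 0.0498 and 0.0495). The 14 seed maturation markers summed to 56.7 and 13.1 FPKM in *paipp2-1* and 2.31 and 1.75 in *aipp2-1*, and 1 of the 14 was at 0 in both *paipp2-1* libraries against 3 in *aipp2-1*. The 4 leaf markers, almost all *PORB*, summed to 417 and 376 against 303 and 272 FPKM, and the part of either in these values was not tested.

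**Figure D5:**
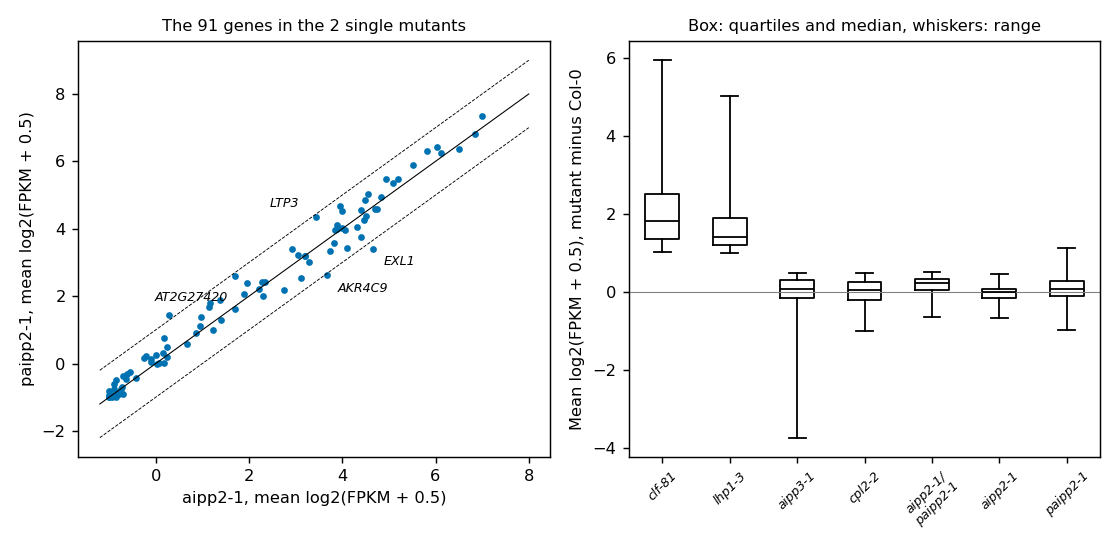
Left, mean log2(FPKM + 0.5) of each of the 91 genes in *aipp2-1* (horizontal) and *paipp2-1* (vertical), with lines of equality (solid) and of a 2-fold difference (dashed). *EXL1* lies below the lower dashed line. Right, the difference from Col-0 of the 91 genes in each mutant (box, quartiles and median; whiskers, full range), with medians of 1.82 in *clf-81*, 1.41 in *lhp1-3* and between -0.01 and 0.21 in the other 5.

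The rule was also applied to the libraries of 1 replicate number and read in the others. Only genes tested were used, and the filter on low FPKM that defines them drew on the libraries of both replicate numbers. The libraries read therefore also took part in the choice, above all for genes near 0 in Col-0. The shares below are a description and not an independent replication, and the effect of this filter on them was not tested. With replicate 1 alone 84 genes met it, and in the replicate 2 libraries 47 of these (56%) were again at least 1 in both Polycomb mutants, against 1.69% of all genes tested. The whole rule was met again by 32 of the 84 (38.1%, against 0.478%). With replicate 2 alone 95 genes met it, and in the replicate 1 libraries 83 (87.4%, against 2.95%) were again at least 1 in both and 32 (33.7%, against 0.422%) met the whole rule.

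By annotation, the 91 genes resembled the genes tested in structure. The median transcript length was 1451 bases (1710 over genes tested), the median exon number 3 (4) and the median GC content 40.9% (41.2%), over the 89 members with a gene model. By chromosome there were 29 members on 1, 14 on 2, 14 on 3, 16 on 4 and 16 on 5. Of the 91 genes, 27 carried a biological-process term for a response or defense (29.7%, against 18.4% of genes tested) and 3 one for development or flowering (3.30%, against 8.21%), namely *LOX1*, *TCP1* and *CAR6*. *AG* was not counted under that term, so the terms miss known roles. Oxidation-reduction was the term of 19 members (20.9%, against 6.43%), and 8 had a term for transcription (8.79%, against 9.27%).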

How the data were processed

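Per the labels, mRNA was isolated with oligo(dT) beads from 12-day-old seedlings and sequenced as paired ends. The authors trimmed reads with SeqPrep and Sickle, and the submitters' processing notes name TopHat, Bowtie, RSEM and edgeR. The genome build is not given in the sources used here. The authors deposited FPKM values for 33048 genes in 16 libraries, 2 for each of 8 genotypes. Depth was derived from the steps of low values, of which 93.2% to 97.4% lay within 0.15 of a whole fragment. Promoters, positions and gene models came from RefSeq TAIR10.1 by gene ID.

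A single linear model on log2(FPKM + 0.5) held the 16 libraries, leaving 8 residual degrees of freedom, and was fitted with lmFit and trended eBayes of limma 3.58.1 (R 4.3.3). P-values were adjusted by Benjamini-Hochberg over 19895 genes. Calls needed an adjusted p under 0.05 and a 2-fold change. The script was tested on simulated data. The alternatives were pseudocounts of 0.1 and 1, other filters, 2 scalings, a replicate block, other fits and each library left out.

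The genes and lists were chosen with earlier results of these data known. Genes named were the 12 with the largest smaller Polycomb difference, the 3 highest in Col-0, the 3 most unequal each way, the 3 lowest in BPC mutants, those at the limits, list genes, neighbours and calls. Others were named after their values were seen.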

Additional observations from a re-analysis of the deposited data

Results flagged for a closer look

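*EXL1* was picked out because the effects of the *aipp2-1* and *paipp2-1* mutations on it, each against Col-0, differed in a test of the difference itself. The log2 difference of *paipp2-1* from *aipp2-1* was -1.26 (limma adjusted p = 0.0031). Relative to Col-0 the gene differed by 0.43 in *aipp2-1*, which did not pass the limma threshold, and by -0.82 in *paipp2-1* (limma adjusted p = 0.023, under a 2-fold change). Both *aipp2-1* libraries were above both Col-0 libraries, as for 26.5% of all genes tested. Both *paipp2-1* libraries were below both Col-0 libraries, as for 21.9%. In *aipp2-1/paipp2-1* it had 21.4 and 18.1 FPKM, which overlap the 19.1 and 17.35 FPKM of Col-0. The groups had 2 libraries, so no group was searched for outlying samples.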

How the results depend on the processing

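The rule gave 91 genes, and between 81 and 115 under other pseudocounts, scalings, filters or single replicate numbers, with 30 at a Polycomb limit of 1.5 and 35 at a BPC limit of 0.25. With quantile normalization 87 of the 91 were among 115 genes, and with a pseudocount of 1, 68 were among 81. The count of members called in *paipp2-1* against *aipp2-1*, 1, ranged from 0 to 2 when a library was left out (0 without *aipp2-1* replicate 2, and 2 without either *aipp2-1/paipp2-1* library). The median difference of members between these mutants, 0.094, was 0.125 with a pseudocount of 0.1, 0.119 with quantile normalization, 0.128 with median-ratio scaling, 0.125 with the filter on 4 libraries, and 0.069 to 0.102 with a library left out. With the replicate block the members called were 90 in *clf-81*, 89 in *lhp1-3*, 0 in *aipp2-1*, 0 in *paipp2-1* and 1 in *paipp2-1* against *aipp2-1*, so it changed only the *lhp1-3* count, by 1. Same-numbered libraries deviated together with correlations of -0.218 to 0.0588, and the numbers are not stated to pair libraries. Crossing the pairs, an alternative chosen after seeing the data, gave 89 in *lhp1-3*, 0 in *paipp2-1* and 1 in *paipp2-1* against *aipp2-1*. The members called fell to 80 in *clf-81* and 71 in *lhp1-3* without Col-0 replicate 1. Over all genes, *paipp2-1* against *aipp2-1* had 10 higher and 6 lower, 8 and 3 with quantile normalization, 13 and 4 with median-ratio scaling, 7 and 3 with the block, 25 and 20 with only these libraries, 42 and 31 without either *aipp2-1/paipp2-1* library and 2 and 0 without *aipp2-1* replicate 2. The double mutant *aipp2-1/paipp2-1* had 1282 higher genes and 254 lower, 1046 and 430 with quantile normalization, 176 and 7 with only its libraries and Col-0, 983 and 172 without its replicate 1, 2289 and 1099 without its replicate 2 (where 1 member was called lower), and quantile normalization moved the members' median there from 0.21 to 0.04. No result for a named gene changed direction, but some fell under the limit of 1 when a library was left out. Among them were *AT2G27420* (0.725) and *AT4G05475* (0.848) in *clf-81* and *ISA3* (0.791) in *lhp1-3*. The causes of these changes were not tested. Genes with a few fragments in Col-0 have uncertain fold changes.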

Other observations

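Protease inhibitors and proteins with a cystatin fold made up 4 of the 91 genes. The trypsin inhibitor gene *ATTI6* had 36.0 and 34.4 FPKM in Col-0, against 184 and 227 in *clf-81*, while *lhp1-3* had 104 and 110.35 and the 10 libraries of the other mutants lay between 26.5 and 48.0. The cystatin-like gene *AT5G05060* had 18.3 and 21.9 FPKM in the Col-0 libraries, 87.8 and 84.6 in those of *clf-81* and 55.95 and 54.0 in those of *lhp1-3*, and at most 22.9 elsewhere. Both had all 4 Polycomb libraries above every other library.

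Transporters of sugars, amino acids and nitrate were 5 of the 91, with median differences of 2.15 in *clf-81* and 1.36 in *lhp1-3*. The proline transporter gene *PROT3* had 0.54 and 0.67 FPKM in Col-0, against 5.68 and 5.75 in *clf-81*, while *lhp1-3* had 3.68 and 3.58. *NPF6.4*, of the nitrate and peptide transporter family, had 9.47 and 12.3 FPKM in the Col-0 libraries, 36.3 and 36.2 in those of *clf-81* and 23.9 and 23.5 in those of *lhp1-3*. These groups were formed after the values were seen, and no test is given for them.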
